A study of Homo sapiens with 18 samples.

Results

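The 35 genes described here encode the core of homologous recombination and the Fanconi anemia pathway, together with the kinases that signal to them. They were taken by name from a table of 22034 genes, with the Ensembl identifiers of the table matched to symbols. RNA-seq was performed on 18 samples of VCaP, a line from a prostate cancer metastasis with the TMPRSS2:ERG fusion. VCaP-shERG cells, which make a hairpin RNA against ERG when doxycycline (Dox) is added, received vehicle (shERG-DMSO) or 1 µg/mL Dox (shERG-Dox) in a first experiment. In the second, parental VCaP cells received DMSO or 50 µM PBITE-1, a small molecule that binds the PNT domain of ERG, for 4, 8, or 12 h. Each of the 6 groups held 3 samples. The sample labels give neither the duration of Dox nor the time at which the DMSO samples of parental cells were collected, and the 3 times of PBITE-1 share those DMSO samples. No Dox-treated sample without the ERG hairpin was analysed here, so that an effect of Dox itself and of the hairpin cannot be told apart. All samples carry the fusion. The study's methods call the PBITE-1 samples biological replicates without saying what was kept separate, so the p-values measure the spread between these samples.

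Homologous recombination repairs a broken chromosome by copying the sister chromatid. The broken ends are resected to single strands, and BRCA1, PALB2, and BRCA2 load a strand-exchange recombinase onto them. Fanconi anemia proteins act when the DNA strands are crosslinked. A core complex ubiquitinates the FANCD2 and FANCI pair, which brings in nucleases and then the recombination proteins. ATM and ATR sense breaks and stalled forks and signal through CHEK2 and CHEK1. Most of these genes are expressed more strongly in S and G2 phase, when a sister chromatid is present, and inherited or somatic loss of several of them is known in prostate cancer.

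ERG is a factor of the ETS family, which binds DNA at a GGA core. Of the 35 genes, 31 have a promoter in the RefSeq table used here, and 5 of these (16.1%) held the letters CCGGAAGT, a match to the ETS consensus, on either strand within 250 bases before the RefSeq gene start, against 3.64% of 27305 promoters of the same length. The 5 genes were BRCA2, PALB2, FANCD2, MRE11, and RAD50, and RAD50 held 2 matches. Each match is printed because ERG is the factor that the study knocks down or targets. It is shown within 30 bases of GRCh38.p14, written 5′ to 3′ along the gene, with the matching letters in capitals (ACTTCCGG where the match lies on the opposite strand). Distances are to the gene start of the RefSeq table, which lies 34 bases inside the gene in GENCODE release 29 for BRCA2, 23 for FANCD2, 64 for MRE11, and 958 for RAD50, and at the same base for PALB2, so both RAD50 matches lie inside the gene by that annotation.
BRCA2 (chr13:32315408-32315437, plus strand, match from 89 bases before the start): acccaggcctgACTTCCGGgtggtgcgtgt
PALB2 (chr16:23641453-23641482, minus strand, match from 161 bases before the start): agattccggctACTTCCGGccgctcctcca
FANCD2 (chr3:10026356-10026385, plus strand, match from 70 bases before the start): cccggccttccACTTCCGGcgcggaagttg
MRE11 (chr11:94493984-94494013, minus strand, match from 158 bases before the start): ccttgcatctcACTTCCGGgttcgtctcct
RAD50 (chr5:132556811-132556840, plus strand, match from 155 bases before the start): ccagcaaagatCCGGAAGTccgctgcccct
RAD50 (chr5:132556875-132556904, plus strand, match from 91 bases before the start): ccgtaccgcacCCGGAAGTcggagctgcgc
In GENCODE release 29, the match of PALB2 lies in an exon of its neighbour DCTN5, that of MRE11 in an exon of ANKRD49, and the first of RAD50 in an exon of IL5. The other matches lie in no annotated exon. A CCAAT box (CCAAT, either strand) stood before 14 of the 31 genes (45.2%, against 33% of all promoters), a CHR element (TTTGAA or TTCGAA) before 3 (9.68%, against 14.6%), and an E2F-type element (TTTCGCGC, TTTGGCGC, or TTTCCCGC) before 1, FANCC (3.23%, against 2.38%). All shares are over every promoter of the RefSeq table, and none was taken over expressed genes alone. These are matches of letters, and no binding was measured.

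Totals were 11308600 to 17483423 counts per sample. ERG itself was measured first as a check of the labels. Its level was 461, 449, and 433 CPM (counts scaled to the size of the library) in shERG-DMSO and 166, 167, and 159 in shERG-Dox, and ERG fell by 1.44 on the log2 scale (SE 0.04, limma adjusted p = 3.29e-22). In parental cells, the mean ERG level was 289 CPM with DMSO and 180, 93.8, and 97.2 at 4, 8, and 12 h of PBITE-1. The luminal marker KLK2 was present in every sample, while the leukocyte marker PTPRC and the fibroblast marker COL3A1 had at most 4 counts in any sample. The mean of KLK2 was 3498.0 CPM in shERG-DMSO and 2321.2 in shERG-Dox, and 2631.9 with DMSO and 600.7 at 12 h. The sum of 4 markers of other cell types was 0.879 to 1.8 CPM in shERG-DMSO and 5.27 to 6.22 in shERG-Dox, and 1.04 to 1.64 with DMSO and 5.71 to 9.08 at 12 h. Of these, COL1A1 was higher with Dox, and COL1A1 and PECAM1 at 12 h. The part of these markers in the results was not tested.

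All 35 genes passed the filter on low counts, among 14164 genes tested. Per length of exon, FANCI was the highest in both control groups, with 46.6 CPM per kb in shERG-DMSO and 46.3 in DMSO. RAD51B was the lowest, with 0.443 and 0.239 CPM per kb, and RAD50 stood next to it with 0.869 and 0.72. The median over the 35 genes was 9.12 CPM per kb in shERG-DMSO and 7.3 in DMSO. The experiments were scaled separately here, so these values rank genes within a group and do not compare the groups. Of the 35, 19 overlap another gene of the table, and how reads in a shared stretch were assigned is not given in the sources used here. RAD51D overlaps a read-through gene with RFFL, and RAD54B overlaps FSBP.

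The first comparison asked which of these genes moved when ERG was knocked down. With Dox, 31 of the 35 genes were lower at an adjusted p under 0.05, against 35.3% of all genes tested. Past 2-fold, 15 were lower, against 7.19% of all genes. The median log2 fold change of the 35 genes was -0.85, and that of all genes was 0.02. By limma-voom 0 of the 35 were higher, against 35.1% of all genes, and 0 had a positive change with an unadjusted p under 0.05. DESeq2 also called 0 higher and edgeR's quasi-likelihood test called 1, ATM. The 4 genes that were not called were RAD51B, RAD50, NBN, and ATM. Scaling by library size only, which moved the median of all genes by 0.26, ended the calls of FANCC, FANCF, and RAD51D, and upper-quartile scaling those of FANCF and RAD51D. In bulk RNA, a smaller share of cells in S or G2 phase and less RNA of a gene per cell cannot be told apart.

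Among the genes that hand the recombinase to DNA, all 5 were lower with Dox, with a median log2 fold change of -1.17. BRCA1, a ubiquitin ligase that acts at break ends (ENSG00000012048, chr17:43044295-43170245, minus strand, GRCh38), stood at 195, 209, and 199 CPM in shERG-DMSO and at 65.1, 65.5, and 69.2 in shERG-Dox. Every Dox sample lay below every vehicle sample, and the level was 3.02-fold lower (log2 fold change -1.60, SE 0.05, limma adjusted p = 1.85e-20). BRCA2, which places the recombinase on single strands (ENSG00000139618, chr13:32315474-32400266, plus strand), went from 85.1, 93.5, and 96.2 CPM to 33.5, 34.0, and 36.4, a 2.65-fold lower level (log2 fold change -1.41, SE 0.06, limma adjusted p = 1.48e-16). The helicase gene BRIP1 fell by 1.17 and BARD1, the partner of BRCA1, by 0.85 on the log2 scale. PALB2, the bridge between BRCA1 and BRCA2, had the smallest change of the 5, from 13.5, 14.1, and 17.2 CPM to 9.88, 10.2, and 9.07 (log2 fold change -0.61, SE 0.12, limma adjusted p = 8.59e-05).

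Of the 8 partners of the recombinase, 7 were lower with Dox and 4 of them past 2-fold. RAD54L, a motor protein that remodels the exchange intermediate, stood at 46.7, 49.2, and 50.1 CPM with vehicle and at 14.9, 14.0, and 13.0 with Dox (log2 fold change -1.80, SE 0.09, limma adjusted p = 5.07e-16). The paralog gene XRCC2 went from 94.4, 96.4, and 98.3 CPM to 30.5, 29.8, and 31.2 (log2 fold change -1.66, SE 0.06, limma adjusted p = 1.16e-18). In both genes every Dox sample lay below every vehicle sample. RAD51AP1 fell by 1.53 and XRCC3 by 1.19, while the other paralogs changed less, with -0.59 for RAD51C and -0.24 for RAD51D. RAD51B, with 2.02 to 4.16 CPM in the 6 samples, changed by -0.52 (SE 0.25, limma adjusted p = 0.0705).

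All 8 genes of the Fanconi core complex and its anchor were lower with Dox, yet only FANCG (-1.08) passed 2-fold, and the median log2 fold change was -0.62. FANCB followed with -0.99, FANCA with -0.85, and FANCE with -0.78. FANCL, the ubiquitin ligase subunit of the complex, fell by 0.47, FANCC and the DNA-binding anchor FANCM by 0.44 each, and FANCF by 0.38. The substrates of the complex changed more than most of its subunits. FANCD2 (ENSG00000144554, chr3:10026414-10101930, plus strand) went from 139, 146, and 147 CPM to 61.4, 61.5, and 60.5, a 2.36-fold lower level (log2 fold change -1.24, SE 0.05, limma adjusted p = 4.26e-18). Its partner FANCI went from 368, 373, and 344 CPM to 151, 157, and 159 (log2 fold change -1.22, SE 0.04, limma adjusted p = 5.53e-20). FANCI overlaps POLG, which fell by 0.44 with Dox.

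Among the 8 genes of end resection and of the dissolution of joined strands, 6 were lower. EXO1, the exonuclease that extends resection, went from 82.7, 77.4, and 78.1 CPM to 20.4, 21.8, and 23.8 (log2 fold change -1.85, SE 0.07, limma adjusted p = 5.67e-18). BLM, a helicase of the dissolution step, fell by 1.55, and its partners RMI2 and RMI1 by 1.17 and 0.83. RBBP8, which starts resection with the MRE11 nuclease, fell by 0.73, and MRE11 by 0.54. The other genes of that nuclease complex were not called: the values were -0.10 for NBN (SE 0.06, limma adjusted p = 0.129) and -0.33 for RAD50 (SE 0.16, limma adjusted p = 0.0701).

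CHEK1, the effector kinase of ATR (ENSG00000149554, chr11:125625136-125676255, plus strand), had the most negative change of the 35 genes. It stood at 128.2, 141, and 136 CPM with vehicle and at 35.1, 37.1, and 36.0 with Dox, a 3.75-fold lower level (log2 fold change -1.91, SE 0.06, limma adjusted p = 4.48e-20). CHEK1 overlaps STT3A, which changed by -0.60. CHEK2, the effector of ATM, went from 38.7, 41.8, and 39.3 CPM to 15.4, 18.9, and 16.1 (log2 fold change -1.26, SE 0.09, limma adjusted p = 1e-12). ATR, the kinase that answers stalled forks, fell by 0.54 (SE 0.05). ATM, the kinase that answers double-strand breaks, overlapped between the groups, with 186, 200, and 204 CPM under vehicle and 195, 215, and 218 under Dox (log2 fold change 0.09, SE 0.04, limma adjusted p = 0.072). ATM was called higher under 6 of the other settings and without either of 2 single samples, shERG-DMSO replicate 3 and shERG-Dox replicate 1, with log2 fold changes of 0.09 to 0.35.

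**Figure D1:**
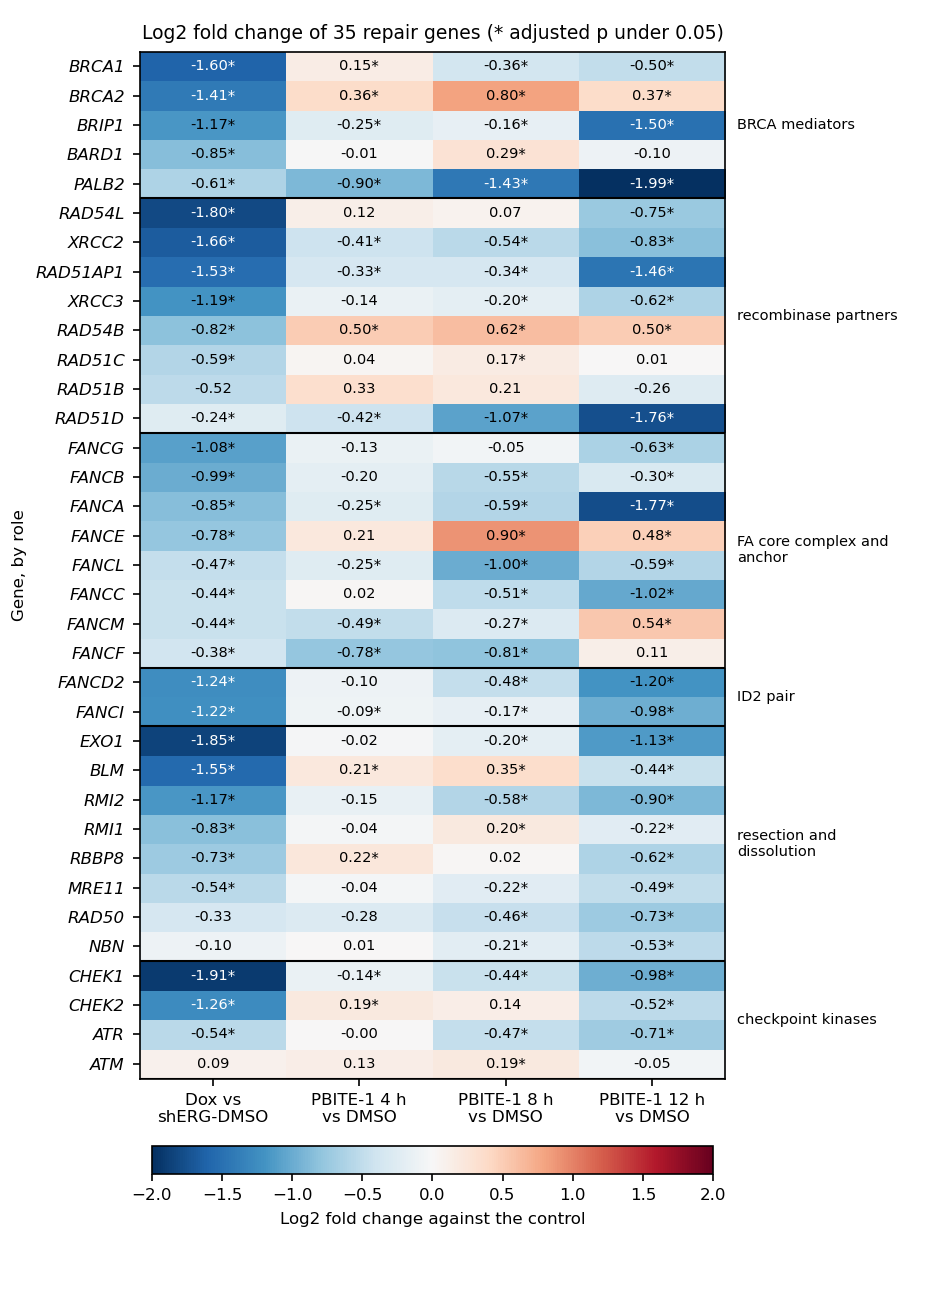
Heat map of the log2 fold change of the 35 genes (rows, grouped by role and ordered by the Dox column) in the 4 comparisons with a control (columns), with an asterisk where the limma adjusted p was under 0.05. The Dox column is blue in every row except ATM (0.09), while the PBITE-1 columns hold both signs, from -1.99 for PALB2 at 12 h to 0.90 for FANCE at 8 h.

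The second experiment asked how the same genes moved over 12 h of PBITE-1. At 4 h, 11 genes were lower and 6 higher than with DMSO, against 24.7% and 26.4% of all genes tested, and the median log2 fold change was -0.04. Without PBITE-1 4 h replicate 3, 7 were called lower and 5 higher, with the calls of CHEK1, CHEK2, FANCA, FANCI, and FANCL lost. At 8 h, 22 were lower and 8 higher, against 37.0% and 35.9%, with a median of -0.21. At 12 h, 26 were lower and 4 higher, against 39.4% in each direction, and the median was -0.62, while that of all genes was -0.01. Past 2-fold, 8 genes were lower at 12 h (15.4% of all genes), 2 at 8 h (8.86%), and 0 at 4 h (2.99%), where the changes ranged from -0.90 to 0.50. Between 4 and 8 h, 15 genes fell and 6 rose (26.3% and 26.7% of all genes), none by more than 2-fold (2.22% and 4.43%). Between 8 and 12 h, 26 fell and 4 rose (32.5% and 27.8%). Of these, BRIP1, RAD51AP1, and FANCA fell past 2-fold (6.59%), and 0 rose past it (3.48%).

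PALB2 (ENSG00000083093, chr16:23603160-23641310, minus strand) had the most negative change at 4, 8, and 12 h alike. Its level was 9.86, 11.1, and 13.6 CPM with DMSO, 7.01, 5.61, and 5.91 at 4 h, 3.56, 4.75, and 4.84 at 8 h, and 3.20, 4.05, and 1.82 at 12 h. The samples of every time lay below those of DMSO, and at 12 h the level was 3.97-fold lower (log2 fold change -1.99, SE 0.21, limma adjusted p = 8.53e-11). BRCA2 moved the other way. It stood at 56.6, 64.9, and 65.7 CPM with DMSO, 74.8, 83.3, and 81.3 at 4 h, 107, 113, and 106 at 8 h, and 77.96, 89.4, and 74.3 at 12 h. All 9 treated samples lay above the DMSO samples, with log2 fold changes of 0.36, 0.80, and 0.37 (SE 0.06 each, limma adjusted p = 1.37e-05, 8.91e-15, and 2.45e-06), and the fall from 8 to 12 h passed the test as well (-0.44, limma adjusted p = 5.34e-08). BRCA1 was higher at 4 h (0.15) and lower at 8 h (-0.36) and 12 h (-0.50). Its 12 h samples, at 104, 110, and 116 CPM, lay below the DMSO samples at 154, 152, and 164 (SE 0.05, limma adjusted p = 1.12e-12). BRIP1 changed by -0.25 and -0.16 at 4 and 8 h. The 4 h call was lost without DMSO replicate 3 or PBITE-1 4 h replicate 1, and the 8 h call with DESeq2, without a filter, with at least 10 counts, and without DMSO replicate 3 or PBITE-1 8 h replicate 1 or 3. Between 8 and 12 h BRIP1 fell by 1.34 (SE 0.09, limma adjusted p = 5.84e-16), from 53.0, 53.4, and 49.5 CPM to 19.3, 21.0, and 21.5. BARD1 was higher at 8 h (0.29) and was not called at 12 h (-0.10, SE 0.06, limma adjusted p = 0.133).

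RAD51D, a recombinase paralog (ENSG00000185379, chr17:35092208-35121522, minus strand), stepped down at each time. It stood at 36.0, 34.97, and 35.3 CPM with DMSO, 25.9, 25.7, and 27.9 at 4 h, 16.8, 17.5, and 16.1 at 8 h, and 10.1, 10.3, and 10.96 at 12 h. No 2 neighbouring groups overlapped, and both steps passed the test (-0.65 and -0.69). At 12 h the level was 3.39-fold lower than with DMSO (log2 fold change -1.76, SE 0.10, limma adjusted p = 1.62e-19). RAD51AP1, which stimulates strand exchange, had -0.33 and -0.34 at 4 and 8 h and then fell by 1.12 (SE 0.07, limma adjusted p = 2.68e-16), from 59.4, 59.4, and 58.1 CPM at 8 h to 25.3, 28.6, and 27.4 at 12 h. RAD54B, a motor protein related to RAD54L, was higher at all 3 times, by 0.50, 0.62, and 0.50 (SE 0.08 each), with 23.8, 28.1, and 27.9 CPM under DMSO and 37.9, 39.0, and 35.8 at 12 h. FSBP, which overlaps RAD54B, changed by -0.78, -1.67, and -1.60 at the same times. RAD54L was not called at 4 or 8 h and had a log2 fold change of -0.75 at 12 h, XRCC2 reached -0.83, and XRCC3 -0.62. RAD51B was called at no time. RAD51C was called higher at 8 h (0.17), and this was lost with DESeq2, upper-quartile scaling, library size only, no filter, a fit of all 18 samples, and without any 1 DMSO replicate or PBITE-1 8 h replicate 1 or 3.

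The 8 genes of the Fanconi core complex and its anchor moved in both directions. At 12 h, 5 were lower, 2 higher, and FANCF was not called. FANCA, the subunit most often mutated in the disease, went from 24.6, 26.9, and 22.8 CPM with DMSO to 7.82, 7.78, and 6.25 at 12 h (log2 fold change -1.77, SE 0.12, limma adjusted p = 3.52e-16), and -1.18 of this came between 8 and 12 h. ZNF276, which overlaps FANCA, changed by -1.11 at 12 h. FANCC reached -1.02 in equal steps of -0.53 and -0.52 after 4 h. FANCM, the anchor, ran in both directions. It stood at 27.0, 31.0, and 29.5 CPM with DMSO, 20.0, 19.9, and 22.3 at 4 h, 24.3, 23.6, and 24.6 at 8 h, and 46.2, 41.6, and 40.1 at 12 h. It was below all DMSO samples at 4 and 8 h (-0.49 and -0.27) and above all of them at 12 h (0.54, SE 0.07, limma adjusted p = 1.19e-08).

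FANCF, an adaptor of the core complex, was lower at 4 and 8 h and was not called at 12 h. Its samples read 16.2, 15.4, and 15.2 CPM with DMSO, 9.65, 9.97, and 7.76 at 4 h, 8.05, 10.5, and 8.25 at 8 h, and 16.4, 18.5, and 15.7 at 12 h. The log2 fold changes were -0.78, -0.81, and 0.11, and the rise from 8 to 12 h was 0.93 (SE 0.12, limma adjusted p = 3.41e-08). FANCL was lowest at 8 h, at 12.8, 12.7, and 13.6 CPM against 23.9, 26.2, and 28.0 with DMSO (about 2-fold lower, SE 0.10 on the log2 scale, limma adjusted p = 9.54e-12), and rose by 0.41 to 12 h. FANCB rose by 0.25 over the same step, a call that was lost without replicate 1 or 3 of either time. FANCE, the subunit that contacts FANCD2, was higher at 8 h (17.2, 17.1, and 17.2 CPM against 9.33, 9.46, and 8.85, log2 fold change 0.90, SE 0.11, limma adjusted p = 2.06e-09) and at 12 h (0.48). FANCG had -0.63 at 12 h and was not called before.

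FANCD2 and FANCI had most of their fall after 4 h. FANCD2 stood at 120, 122, and 133 CPM with DMSO, 116, 115, and 120 at 4 h, 90.0, 88.0, and 90.9 at 8 h, and 55.4, 53.9, and 54.3 at 12 h. The 4 h samples overlapped with DMSO (-0.10, limma adjusted p = 0.0865), and the later ones did not (-0.48 and -1.20, SE 0.05 each). FANCI went from 359, 357, and 364 CPM to 193, 173, and 185 at 12 h. It had -0.09 and -0.17 before and -0.98 then, and -0.81 of this came after 8 h. The call of FANCI at 4 h (limma adjusted p = 0.0436) was lost under 14 other settings. POLG, which overlaps FANCI, changed by 1.51 at 12 h.

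All 8 genes of resection and dissolution were lower at 12 h, and EXO1 passed 2-fold. The call of RMI1 was lost without DMSO replicate 3. EXO1 read 71.7, 77.0, and 80.4 CPM with DMSO, 65.8, 65.3, and 69.3 at 8 h, and 36.3, 35.2, and 33.4 at 12 h (log2 fold change at 12 h -1.13, SE 0.06, limma adjusted p = 3.92e-19). BLM was above DMSO at 4 and 8 h (0.21 and 0.35) and below it at 12 h (-0.44), and RBBP8 had 0.22, 0.02, and -0.62. The nuclease genes MRE11, RAD50, and NBN had -0.49, -0.73, and -0.53 at 12 h. RAD50, at 3.72 to 8.73 CPM in these samples, was the least precise of the 3, with an SE of 0.18.

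Of the checkpoint kinases, CHEK1, CHEK2, and ATR were lower at 12 h, and ATM was not called (-0.05, SE 0.06, limma adjusted p = 0.383). CHEK1 stood at 122, 122, and 122 CPM with DMSO, 113, 113, and 108 at 4 h, 88.1, 93.1, and 88.0 at 8 h, and 58.0, 65.97, and 62.1 at 12 h. The log2 fold changes were -0.14, -0.44, and -0.98, and the last was 1.97-fold (SE 0.05, limma adjusted p = 9.07e-20). ATR was not called at 4 h (-0.00) and had -0.47 at 8 h and -0.71 at 12 h. CHEK2 was called higher at 4 h (0.19, SE 0.07, limma adjusted p = 0.0272, lost under 6 other settings) and lower at 12 h (-0.52). ATM was called higher at 8 h (0.19), with 154, 142, and 147 CPM against 121, 132, and 135 under DMSO. At 4 h its value was 0.13 (SE 0.06, limma adjusted p = 0.0627), and it was called higher with edgeR, with at least 10 counts, with sample quality weights, and without any of 4 single samples (0.13 to 0.22).

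**Figure D2:**
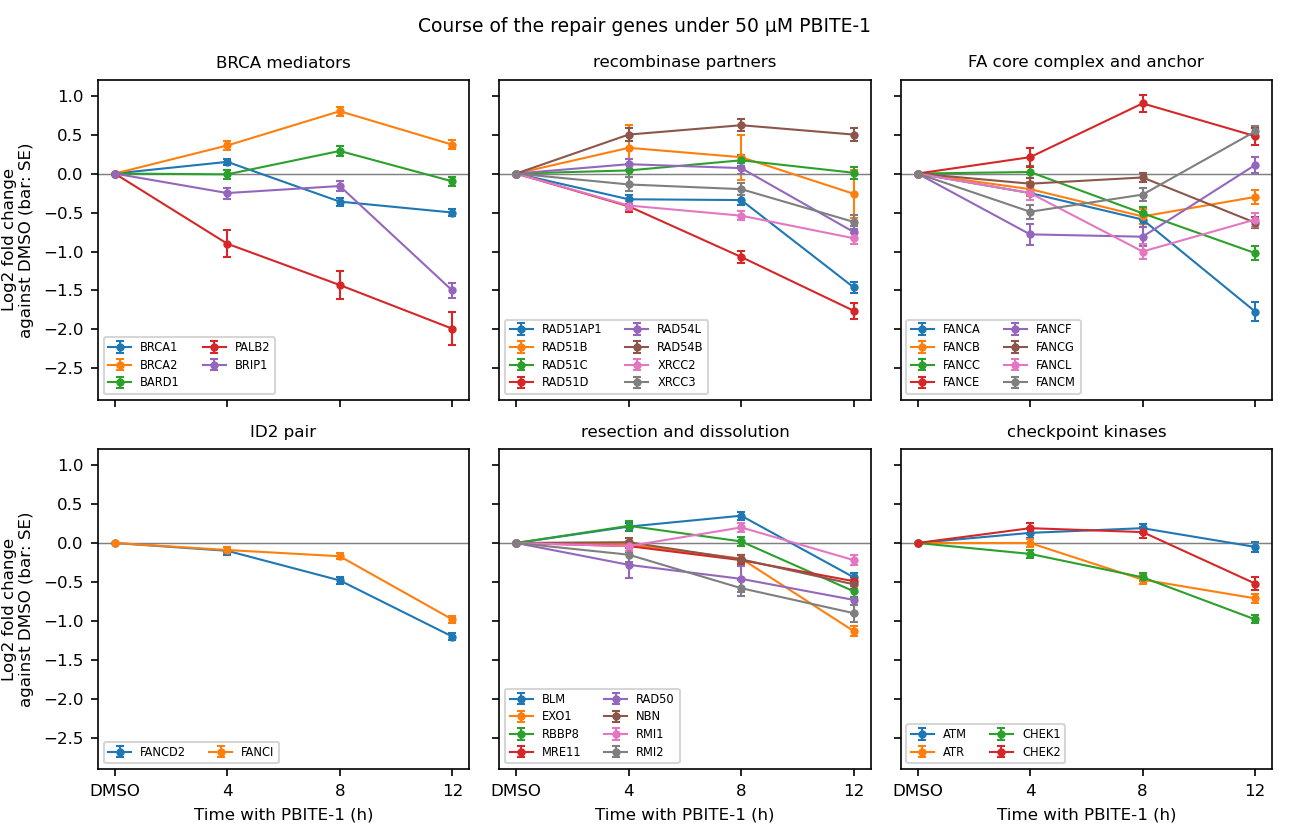
Log2 fold change against DMSO (vertical axis, bars are SE) at 4, 8, and 12 h of PBITE-1 (horizontal axis), with 1 line for each of the 35 genes and 1 panel for each role; the DMSO point is set to 0. The ID2 pair and the resection genes end below 0, whereas the BRCA mediators and the core complex spread, from -1.99 for PALB2 to 0.54 for FANCM at 12 h.

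**Figure D3:**
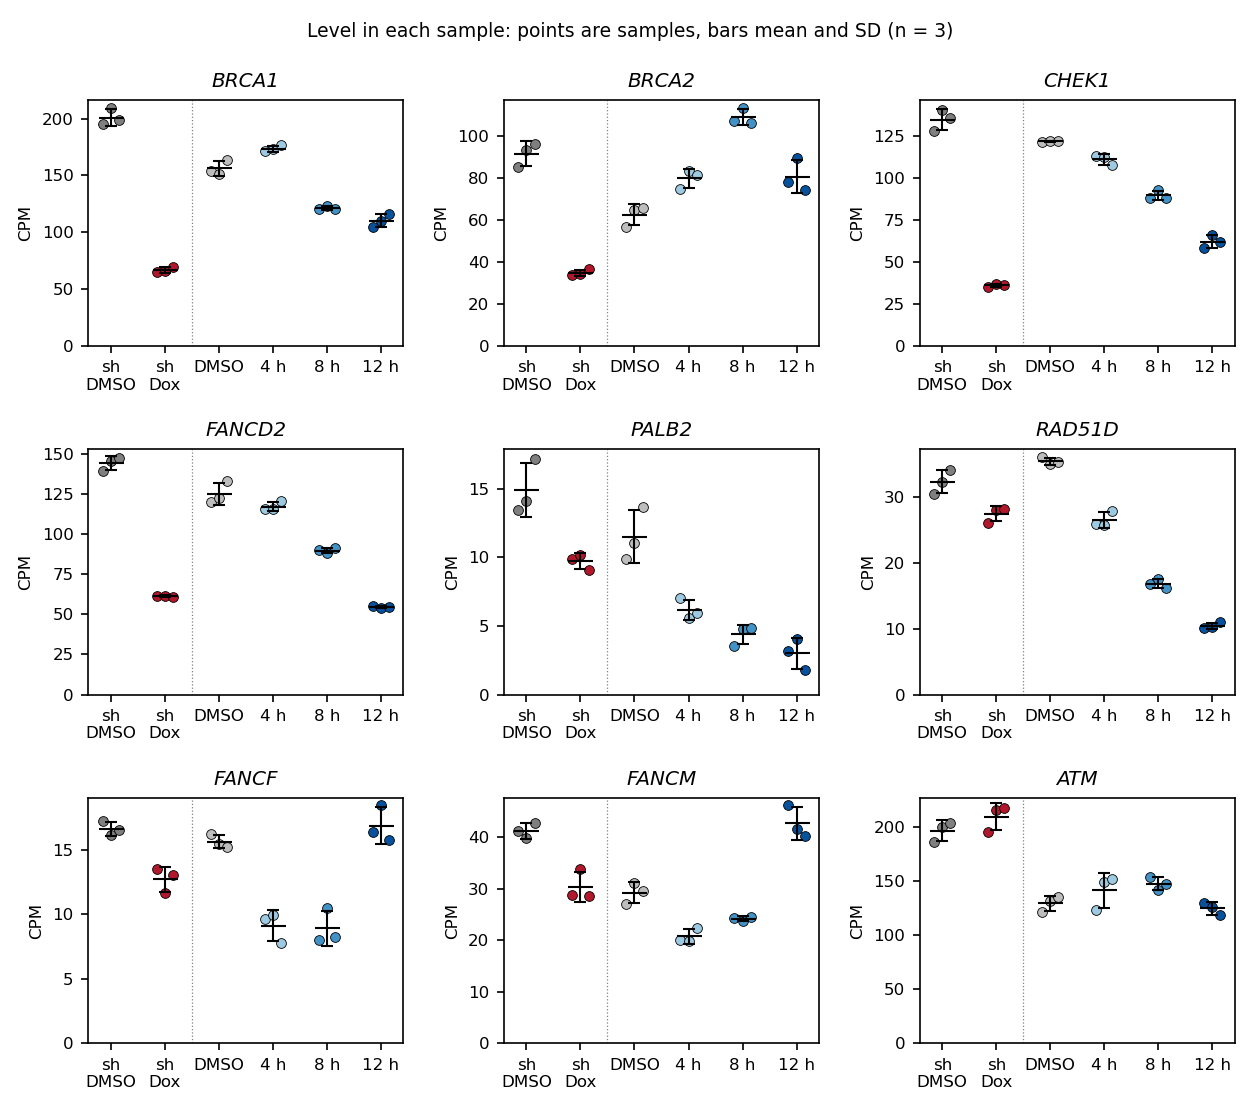
CPM (vertical axes, from 0) of 9 of the genes in each of the 18 samples, with the mean and SD of each group of 3, and a dotted line between the experiments. BRCA1, CHEK1, and FANCD2 fall with Dox and by 12 h of PBITE-1, BRCA2 falls with Dox and rises with PBITE-1, and FANCF and FANCM are low at 4 and 8 h and at or above DMSO at 12 h.

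The third comparison set the response to PBITE-1 at 12 h against the response to Dox. Of the 35 genes, 24 were lower in both (22.4% of all genes), and 4 were lower with Dox and higher with PBITE-1 (BRCA2, RAD54B, FANCE, and FANCM, against 7.86%). Since 31 of the 35 were lower with Dox and 26 at 12 h, a large overlap follows from those counts alone. BARD1, RAD51C, and FANCF were lower with Dox and not called with PBITE-1 (5.13%), and RAD50 and NBN were lower with PBITE-1 and not called with Dox (8.39%). The difference between the responses was not called for RAD50. BRIP1, RAD51AP1, FANCD2, and EXO1 were lower past 2-fold in both (3.20%). Across the 35 genes, the log2 fold changes of the responses had a Pearson correlation of 0.20 and a Spearman correlation of 0.27, and 80% had the same sign. Over all 14164 genes these were 0.26, 0.33, and 63.7%. The change with Dox was negative in every one of the 35 but ATM, so their shared sign mostly restates how many changes were negative at 12 h. Genes are not independent replicates, and all points of a response come from the same 6 samples.

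The difference between the responses, PBITE-1 at 12 h minus Dox, was tested in a fit of all 18 samples. It was positive for 19 genes and negative for 8 at an adjusted p under 0.05, against 33.3% and 35.1% of all genes, with a median of 0.41. Past 2-fold it was positive for 6 (13.0%) and negative for 2 (15.9%). When counts were scaled by library size only, which moved the median of all genes by -0.26, the split was 15 positive and 12 negative. BRCA2 had the largest positive difference, 1.73 (SE 0.10, limma adjusted p = 2.14e-20), followed by RAD54B with 1.28 and FANCE with 1.22, and these 3 moved in opposite directions in the experiments. For BLM (1.07), BRCA1 (1.05), and RAD54L (1.01), both responses were negative and that to Dox was the larger. At the other end, RAD51D had -1.56 (SE 0.12, limma adjusted p = 1.03e-15), PALB2 -1.42 (SE 0.25, limma adjusted p = 3.71e-06), and FANCA -0.95 (SE 0.16, limma adjusted p = 8.14e-07), where the response to PBITE-1 was the larger. FANCD2 had a difference of -0.00 (SE 0.07, limma adjusted p = 0.974), with -1.24 for Dox and -1.20 for PBITE-1, and was called at -0.26 by library size only. CHEK1 and CHEK2 had 0.89 and 0.70, ATR -0.22, and ATM -0.18, whose call was lost with DESeq2, with RLE scaling, without a filter, and without any of 6 single samples.

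**Figure D4:**
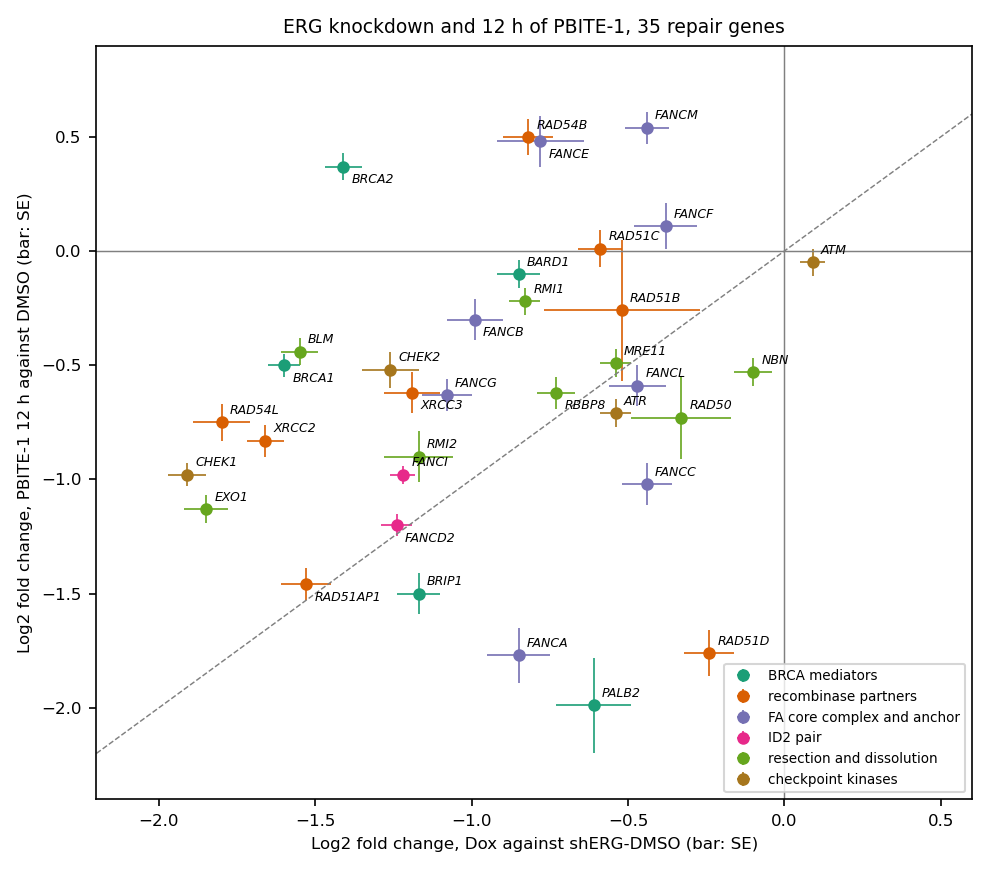
Log2 fold change of the 35 genes with Dox (horizontal axis) and at 12 h of PBITE-1 (vertical axis), with SE bars, colours for the roles, and a dashed line where the responses are equal. Points lie on both sides of the line, with FANCD2 near it, PALB2 and RAD51D far below, and BRCA2 far above.

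**Figure D5:**
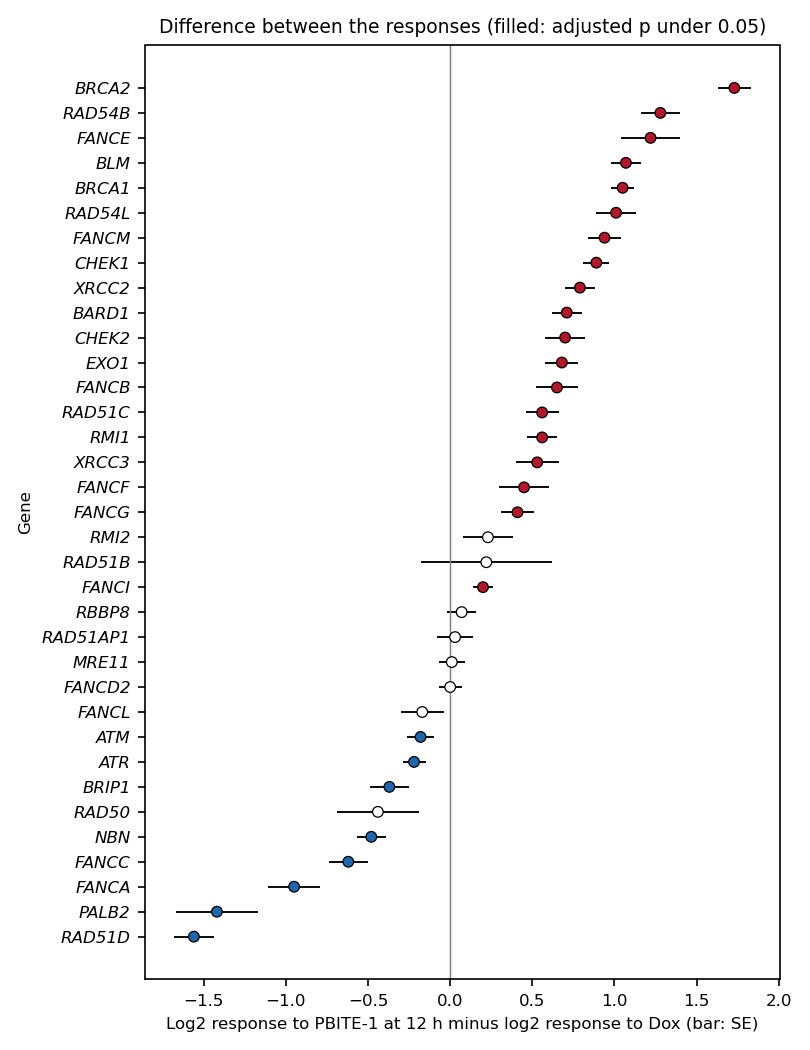
Log2 response to PBITE-1 at 12 h minus log2 response to Dox (horizontal axis, bars are SE) for each of the 35 genes (vertical axis), red where it was higher and blue where it was lower at a limma adjusted p under 0.05. The genes run from -1.56 for RAD51D to 1.73 for BRCA2, and 8 open points did not pass the test.

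The control groups of the experiments were compared as well, on a single scale. In shERG-DMSO, 14 of the 35 genes were higher and 7 lower than in DMSO (23.3% of all genes in each direction), and the log2 differences ranged from -0.51 for RAD51AP1 to 0.68 for RAD51B, whose call was lost without shERG-DMSO replicate 1 or DMSO replicate 1 or 2. BRCA2 was at 79.7, 87.4, and 90.3 CPM in shERG-DMSO and at 59.5, 68.1, and 68.8 in DMSO (0.39, SE 0.06, limma adjusted p = 8.76e-07), so that its response to Dox began from a higher level. ATM was higher by 0.44 and FANCB by 0.56. FANCD2 (0.04), CHEK1 (-0.02), and CHEK2 (0.00) were not called. The line, the vector, and the experiment cannot be told apart in this comparison.

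Genes that work beside the 35 were counted in the same comparisons, where 35.3% of all genes were lower and 35.1% higher with Dox, and 39.4% were lower and 39.4% higher at 12 h. Of 18 partners in the Fanconi and crosslink repair pathway, 8 were lower and 3 higher with Dox, and 10 lower and 7 higher at 12 h. UBE2T, the ubiquitin-conjugating enzyme that works with FANCL, had the most negative change with Dox (-1.59), and ERCC1, a nuclease subunit, the most positive (0.57). At 12 h the range of called genes ran from -1.04 for FAAP20, a core complex partner, to 1.00 for SLX4, a nuclease scaffold. Of 23 further recombination genes tested, 14 were lower and 1 higher with Dox, and 12 lower and 7 higher at 12 h. DNA2, a resection nuclease, had -1.42 with Dox, and the helicase RTEL1 had -1.26 at 12 h. ABRAXAS1, a scaffold that holds BRCA1 at breaks, had 0.50 with Dox and 3.07 at 12 h (SE 0.14, limma adjusted p = 1.81e-21). Of 14 checkpoint partners, 11 were lower with Dox, with CLSPN, the CHEK1 adaptor, the most negative (-1.61). At 12 h, 8 were lower and 2 higher, from -2.27 for the phosphatase CDC25A to 0.72 for the clamp loader RAD17. The median log2 fold changes with Dox were -0.16, -0.42, and -0.87 for these lists, and at 12 h -0.22, -0.19, and -0.26.

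Genes of other repair routes were counted against the same shares of all genes. Of 13 end joining genes, 7 were lower and 2 higher with Dox, and the counts at 12 h were also 7 and 2. With Dox they had a median of -0.27, from -1.51 for POLQ, the polymerase of microhomology joining, to 1.60 for the ligase LIG4. At 12 h LIG3, a ligase of the alternative route, had the most negative change of this list (-1.40), and LIG4 had 0.78. Of 15 nucleotide excision repair genes, 9 were lower and 2 higher with Dox (median -0.26), and 7 lower and 4 higher at 12 h (median -0.16), where XPC, the damage sensor, had 1.01 and ERCC8 -1.25.

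Genes of S phase were counted beside the 35. The list of 12 held replication licensing and cyclin E genes, with PCNA and E2F1. All 12 were lower with Dox, against 35.3% of all genes, with a median log2 fold change of -1.56. Their summed level was 2294.5 to 2345.8 CPM in shERG-DMSO and 732.8 to 764.9 in shERG-Dox. In parental cells the sum lay between 2114.7 and 2154.2 CPM with DMSO and between 2032.3 and 2096.0 after 4 h of PBITE-1. It lay between 1763.2 and 1819.2 after 8 h and between 768.5 and 810.2 after 12 h. The single genes did not all follow the sum. Against DMSO, limma called 5 genes down and 3 up after 4 h (median -0.05). After 8 h the calls split into 7 down and 5 up (median -0.36), from -1.10 for MCM3 to 0.79 for CCNE1. After 12 h, 10 of 12 were lower (median -1.87). All 12 fell between 8 and 12 h, with a median of -1.37, and so did 26 of the 35 repair genes, with a median of -0.42. Of all genes, 32.5% fell over that step. Against DMSO at 12 h, 26 of the 35 were lower, and BRCA2, RAD54B, FANCE, and FANCM were higher (39.4% of all genes in each direction). CDC6 and CCNE1 of the S phase list were not called at that time. The part of the S phase share of cells in the levels of the repair genes was not tested.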

How the data were processed

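RNA was depleted of ribosomal RNA and sequenced as pairs of reads. The deposited values are whole-number counts per gene, not normalized by the authors. The study's methods name Kallisto, while the submitters' processing notes name STAR, featureCounts, and hg38; which tool made the table, the annotation, and the use of strand are not given in the sources used here. Totals of 11308600 to 17483423 counts per sample limit the precision of low genes such as RAD51B and RAD50. Samples were grouped by their labels, and none was left out. Of 22034 genes, 22011 were matched to a symbol, and positions are from GENCODE release 29 on GRCh38. The 35 genes and all lists were chosen with earlier results of these data known, so counts over a list are descriptions.

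Genes were kept by filterByExpr of edgeR 4.0.16 over the 6 groups, leaving 14164 genes with 99.9% or more of each sample's total. Counts were scaled by TMM and fitted with voom, lmFit, and eBayes of limma 3.58.1 in R 4.3.3, with Benjamini-Hochberg adjustment over all genes tested. The shERG and parental samples were fitted separately, and the response difference and the control groups in a fit of all 18 samples. A gene was called at an adjusted p under 0.05, and 2-fold means an absolute log2 fold change above 1. CPM use TMM factors of each experiment, and CPM per kb divide by the length of all exons of a gene. Promoter sequences are from RefSeq on GRCh38.p14. The procedure was tested on simulated data. Some luminal markers are not reported here. Genes named are the 4 most negative and the 4 most positive called in each comparison with a control, the 3 most extreme at either end of the response difference and of each step in time, and BRCA1, BRCA2, FANCD2, FANCI, ATM, ATR, CHEK1, and CHEK2; other members stand by their role, and a partner list by its most extreme called genes. Values of the 35 beyond this rule, and those of overlapping genes, were chosen after the values were seen.

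Other tests were DESeq2 1.42.0 and the quasi-likelihood test of edgeR. Other scalings were RLE, upper quartile, and library size only. Genes were also tested unfiltered (21560) or with a minimum of 10 counts per sample (11807). Fits were repeated on all 18 samples, on the compared groups alone, with a replicate block, with sample quality weights, and without each sample in turn. A chi-square test of the counts gave 1.7 to 4.96 per degree of freedom for pairs within a group, so all samples were kept as separate.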

Additional observations from a re-analysis of the deposited data

Results flagged for a closer look

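The responses to PBITE-1 at 12 h and to Dox differed by the test of their difference in 27 of the 35 genes. It was negative for 8 genes and positive for 19, against 35.1% and 33.3% of all genes tested. The split was more even when counts were scaled by library size only. The named genes at either end were RAD51D with -1.56, PALB2 with -1.42, and FANCA with -0.95, and BRCA2 with 1.73, RAD54B with 1.28, and FANCE with 1.22, all on the log2 scale. RAD51D and RAD54B overlap another gene of the table, and FANCA overlaps ZNF276.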

How the results depend on the processing

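There were 1655 values under other settings, all of genes and comparisons named by the rule given with the processing. Of those called in the main fit or under the other setting, 0 changed direction. The direction of values called in neither was not compared. By the threshold, 1612 stayed on the same side, and 22 passed it and 21 missed it only under the other setting. These 43 were values of ATM, CHEK1, CHEK2, FANCD2, and FANCI. For other genes, lost calls are given where their values are printed. Calls that enter only the counts were lost under some settings as well. They included XRCC3 and RAD50 at 8 h, and BLM, FANCM, PALB2, MRE11, and RBBP8 from 4 to 8 h. Others were BRCA1 and RMI2 from 8 to 12 h, FANCF, FANCG, and XRCC3 for the difference, and MRE11, XRCC3, and FANCA between the control groups. Without single samples, the number of genes lower and higher was 31 to 32 and 0 to 1 with Dox, 7 to 11 and 5 to 7 at 4 h, 19 to 22 and 7 to 8 at 8 h, 25 to 26 and 4 at 12 h, and 7 to 9 and 19 for the difference. The 7 at 4 h came without PBITE-1 4 h replicate 3. The medians of the 35 genes ranged from -0.88 to -0.80 with Dox, -0.09 to 0.01 at 4 h, -0.25 to -0.17 at 8 h, -0.63 to -0.59 at 12 h, -0.13 to -0.09 from 4 to 8 h, -0.46 to -0.39 from 8 to 12 h, 0.33 to 0.49 for the difference, and 0.10 to 0.14 between the control groups.

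The number of genes higher with Dox was 1 with edgeR, upper-quartile scaling, at least 10 counts, the replicate block, or sample quality weights, and 2 by library size only. Library size only gave medians of -0.59 with Dox, -0.09 at 4 h, -0.27 at 8 h, -0.66 at 12 h, -0.40 from 8 to 12 h, and 0.15 for the difference. It moved the median of all genes by 0.26 with Dox and by -0.26 for the difference. Upper-quartile scaling gave -0.69 with Dox, -0.24 at 8 h, -0.40 from 8 to 12 h, and 0.29 for the difference, and moved the median of all genes by 0.16 and -0.12 for Dox and the difference. The median at 8 h was -0.19 with at least 10 counts and -0.24 in a fit of all samples, which gave -0.65 at 12 h. Sample quality weights gave -0.15 from 4 to 8 h, and only the groups compared -0.39 from 8 to 12 h. The cause was not tested.

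Samples with the same replicate number did not deviate together (correlations of -0.04 to 0.05 over 45 pairs), so the numbers share only a name. With the replicate block every call on the 35 genes was kept, and ATM and RAD51B with Dox and PALB2 from 8 to 12 h were gained. Low counts limit RAD51B, RAD50, and PALB2.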
